A study of Homo sapiens with 10 samples.

Results

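MOK (ENSG00000080823) was examined together with 5 genes that lie beside it on chromosome 14q32, namely WDR20 (ENSG00000140153), HSP90AA1 (ENSG00000080824), CINP (ENSG00000100865), ZNF839 (ENSG00000022976) and TECPR2 (ENSG00000196663). MOK was chosen because it was lower with GW3965 than with DMSO in these libraries, and the 5 others were chosen by position, WDR20 because it overlaps the end of MOK. These were 6 of 62656 genes in the deposited table, and all 6 were among the 20402 genes whose mean over the libraries reached 0.5 RPKM and which were tested.

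PC3 is a human prostate cancer cell line that was established from a bone metastasis and grows without androgens. The cells were starved overnight in RPMI-1640 with L-glutamine and then received GW3965, a synthetic agonist of the liver X receptors (LXRs), at 1 µM for 24 h, or the vehicle DMSO for the same time. RNA sequencing gave 5 libraries with GW3965 and 5 with DMSO, all from the same line, and the comparison asks which transcripts change when LXRs are activated. Nothing in the labels says that the libraries came from separate cultures, so p-values measure only the spread between these libraries, which may be technical. In RNA from a whole culture, fewer cells that express a gene and less RNA per cell cannot be told apart.

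MOK is a serine/threonine kinase that is related to the MAP kinases and belongs to the RCK family with MAK and ICK, kinases known for their role at the primary cilium. WDR20 is a WD-repeat protein that activates the deubiquitinases USP12 and USP46 together with WDR48. HSP90AA1 encodes the inducible cytosolic form of HSP90, a chaperone that folds kinases and steroid receptors. CINP binds CDK2 and the checkpoint kinase ATR with its partner ATRIP, TECPR2 binds proteins of the LC3 family and acts in autophagy and secretion, and ZNF839 is a zinc finger protein of little known function. Genes that lie head to head can share a promoter region, and genes that lie tail to tail can share transcribed sequence, so the values of neighbours inform how far a difference extends along the chromosome.

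The libraries held from 30429384 to 41636379 reads, as recovered from the steps in the RPKM values (reads divided by the length of the gene in kilobases and by a factor for the library). The list of 6 markers of the line, the epithelial genes KRT8, KRT18, KRT19, EPCAM and CDH1 with the mesenchymal gene VIM, had summed levels of 257 to 329 RPKM with DMSO and 287 to 341 RPKM with GW3965. KRT19 was highest at a mean of 149 RPKM, CDH1 was at 0.285 RPKM, and VIM made up 65.6 RPKM of the sum with DMSO and 73.4 RPKM with GW3965 on average. KLK3, which marks androgen-dependent prostate cells, was at 0 in every library. Of 5 fibroblast, 5 leukocyte and 3 endothelial markers, 1, 0 and 1 had a mean of at least 0.5 RPKM, and none of these lists summed to more than 1.17 RPKM in a library. The LXR target genes ABCA1, ABCG1 and SREBF1 were higher with GW3965. On the first principal component, which held 48.5% of the variance, DMSO library 1 and GW3965 libraries 1 and 2 lay between 8.08 and 9.9, DMSO library 4 lay at -10.15, and the other libraries lay between -6.2 and 2.62. The part of this axis in the differences described here was not tested beyond the values without these libraries that are given below.

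In the human genome build GRCh38, the 6 genes spanned 421744 bases of chromosome 14 with alternating strands. By GENCODE 29, HSP90AA1 lay at chr14:102080738-102139699 on the minus strand and WDR20 at chr14:102139503-102224847 on the plus strand, and their 5′ ends overlapped over 197 bases, whereas the RefSeq starts used for the sequences below lie 147 bases apart. MOK lay at chr14:102224500-102305200 on the minus strand, in 20 blocks of exons, and its 3′ end overlapped the 3′ end of WDR20 over 348 bases, of which 194 were exonic in both. These 194 bases were 1.76% of the exon bases of MOK and 2.65% of those of WDR20. On the other side, a gap of 12176 bases separated the start of MOK from that of ZNF839 (chr14:102317377-102342702, plus strand). ZNF839 and CINP (chr14:102341102-102362916, minus strand) met tail to tail, with 1380 exon bases in common, which made up 24.69% of the exon bases of ZNF839 and 25.82% of those of CINP. The starts of CINP and TECPR2 (chr14:102362963-102502481, plus strand) lay head to head at a distance of 46 bases.

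**Figure D1:**
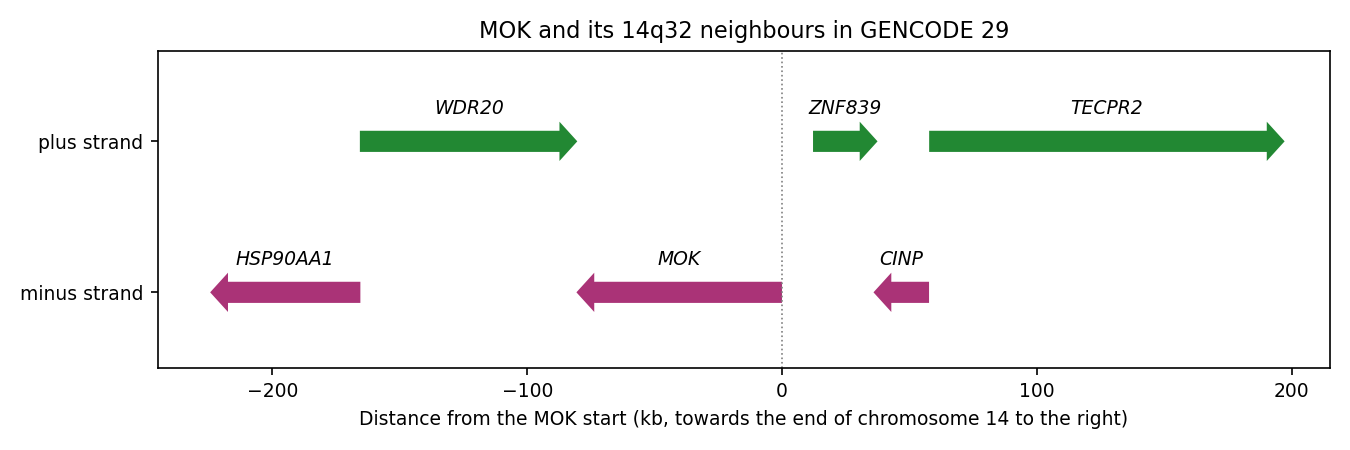
Positions of the 6 genes on chromosome 14 in kb from the start of MOK, drawn to scale as arrows that point in the direction of transcription, on the plus strand above and the minus strand below. The tip of the MOK arrow meets the tip of WDR20, and the start of MOK faces that of ZNF839 across a gap of 12176 bases.

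The sequences upstream of these genes are shown because they separate the genes that lie head to head, and because the upstream sequence of MOK is its own. They are from RefSeq promoters in GRCh38.p14, printed 5′ to 3′, and each is cut so that at most 30 of its bases lie in an exon of GENCODE 29. The MOK line runs towards its start on the minus strand, chr14:102305171-102305414, with a GC box (GGGCGG) and a motif of NRF1 (GCGCATGCGC), an activator of housekeeping genes, in capitals. The HSP90AA1 line is a site on the minus strand upstream of its inner start, chr14:102087111-102087140, with a heat shock element, the binding site of HSF1, in capitals. The HSP90AA1-WDR20 line, chr14:102139750-102139873, and the CINP-TECPR2 line, chr14:102362891-102362940, lie between starts that face away from each other and are written on the plus strand, with GC boxes in capitals, here as their reverse complement CCGCCC. The second of these stretches is all that separates its starts, 50 bases in RefSeq.
MOK: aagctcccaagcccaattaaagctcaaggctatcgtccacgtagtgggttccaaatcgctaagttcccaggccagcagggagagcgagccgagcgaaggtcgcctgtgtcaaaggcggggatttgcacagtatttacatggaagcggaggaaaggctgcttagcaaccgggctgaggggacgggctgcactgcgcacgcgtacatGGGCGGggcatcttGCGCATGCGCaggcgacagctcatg
HSP90AA1: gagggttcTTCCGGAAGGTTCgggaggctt
HSP90AA1-WDR20: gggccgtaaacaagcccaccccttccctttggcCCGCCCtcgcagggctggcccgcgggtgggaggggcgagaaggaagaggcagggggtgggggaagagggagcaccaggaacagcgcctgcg
CINP-TECPR2: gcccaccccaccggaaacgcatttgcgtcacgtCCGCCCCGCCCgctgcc

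Promoters of 300 bases, from 250 before to 50 after the start, were found for all 6 genes, with 9 promoters in all, and both strands were searched for fixed letters. The GC box GGGCGG was in 9 of 9, against 44.95% of all 35116 promoters. The 9 are not separate sequences, since the promoters of CINP and TECPR2 overlap and hold the same GC boxes. The GC box of the outer HSP90AA1 promoter also lies in a promoter of WDR20. The NRF1 motif, GCGCATGCGC, was in that of MOK alone, from base -31 before the start, and in 1.24% of all promoters. A heat shock element, GAANNTTCNNGAA or TTCNNGAANNTTC, was in the promoter of the inner HSP90AA1 start and in 0.49% of all. These letters are the reverse complement of each other, so both matched the same stretch, as did the shorter GAANNTTC, which was in 6.77% of all promoters. The same HSP90AA1 promoter held TATATAA, which was in 2.57% of all, and no promoter of the 6 genes held TATAAA, which was in 11.53%. The LXR response element in its strict form, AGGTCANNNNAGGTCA, was in 0 of 9 and in 0.02% of all promoters, and a single repeat, AGGTCA, was in 0 of 9 and in 13.83% of all. CCAAT was in 4 of 9, among them that of MOK, and in 34.61% of all promoters. AAGATGGCG, a motif of YY1, was in the promoters of HSP90AA1 and WDR20, which share that stretch, and in 1.75% of all, and TGACGT was in 1 promoter of ZNF839 and in 7.98% of all. A match of letters is a description, and a missing match says only that these letters are not in this window. GC content lay between 60.3% in MOK and 75.3% in the inner HSP90AA1 promoter, above the median of 58.7% over all promoters.

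The mean level of MOK was 25.0% lower with GW3965 than with DMSO. Its levels with DMSO were 3.79, 3.95, 4.14, 3.80 and 3.63 RPKM in libraries 1 to 5, and with GW3965 they were 2.74, 2.85, 2.87, 2.95 and 3.07 RPKM. Every library with GW3965 lay under every library with DMSO, and the highest with GW3965 stood at 84.6% of the lowest with DMSO. Since MOK was chosen for this difference, it is given without a test, and beside it stands that 0.49% of all tested genes were lower with GW3965 in the same way, with groups that did not overlap. The mean was 3.86 ± 0.195 RPKM (SD, n = 5) with DMSO and 2.90 ± 0.121 RPKM (SD, n = 5) with GW3965. The log2 fold change, on the log2(RPKM + 0.1) scale used throughout, was -0.40 with a standard error of 0.058.

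Behind these levels stood 1436, 1839, 1378, 1588 and 1291 reads in DMSO libraries 1 to 5, and between 1024 and 1253 reads in the libraries with GW3965. Counting error alone gave a coefficient of variation of 2.33 to 3.12% per library, against 5.05% between libraries with DMSO and 4.18% with GW3965. Counting error does not cover losses and copies made before sequencing, since the reads carry no molecular identifiers. By mean level, MOK ranked at percentile 52.3 of the tested genes, so its level was middling for this line.

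Only 1.45% of the windows of 50 bases in MOK transcripts also occurred in transcripts of other genes, and 147 of 12170 windows were the reverse complement of WDR20. MOK has 40 annotated transcripts, the most of the 6 genes, of which 13 are coding, 8 retain an intron, 10 are targets of nonsense-mediated decay and 9 are processed transcripts. Of its exon bases, 13.5% are coding and 35.3% lie in exons of coding transcripts, so the level can include RNAs that do not encode the kinase. One value per gene was deposited, and which transcripts carried the difference was not analysed here.

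**Figure D2:**
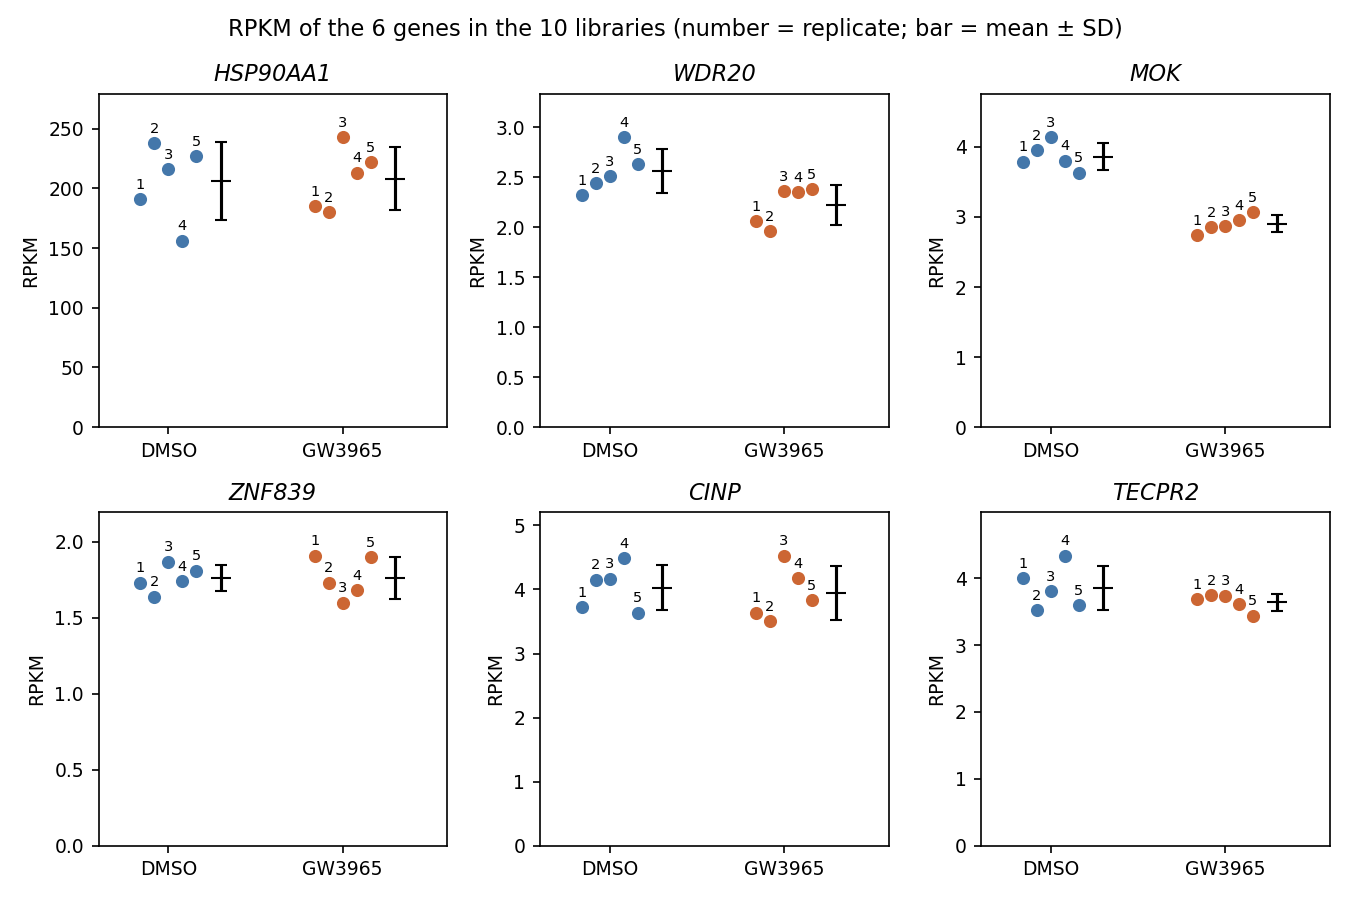
RPKM of each of the 6 genes in the 5 libraries with DMSO (blue) and the 5 with GW3965 (orange), numbered by library, with the mean and SD of each group as a black bar; every axis starts at 0. In MOK the groups are apart, at 3.63 to 4.14 against 2.74 to 3.07 RPKM, and in the 5 neighbours they overlap.

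WDR20, which meets MOK tail to tail, had levels with DMSO of 2.32, 2.44, 2.51, 2.90 and 2.63 RPKM, and with GW3965 of 2.06, 1.96, 2.36, 2.35 and 2.38 RPKM. The groups overlapped, since DMSO library 1 lay below GW3965 libraries 3, 4 and 5. DMSO library 1 was the lowest of its group, and GW3965 libraries 1 and 2 were the lowest of theirs, and these are the libraries that stood together on the first principal component. The means were 2.56 ± 0.221 and 2.22 ± 0.196 RPKM (SD, n = 5 each), a difference of 13.2%. The log2 fold change was -0.20 (SE 0.083, 95% interval -0.38 to -0.01), and its adjusted p was 0.671 by limma over all tested genes. WDR20 was thus past an unadjusted p of 0.05, at 0.0376, as were 6.99% of all tested genes, and did not pass the test. Without the 3 libraries named above, the log2 fold change was -0.14, and that of MOK was -0.38. Between 512 and 808 reads per library gave a counting error of 3.52 to 4.42%, against a variation between libraries of 8.63% with DMSO and 8.82% with GW3965.

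HSP90AA1, whose start lies head to head with that of WDR20, was by far the most abundant of the 6 genes. Its levels were 191, 238, 216, 156 and 227 RPKM with DMSO and 185, 180, 243, 213 and 222 RPKM with GW3965. DMSO library 4 was the lowest of all libraries, GW3965 library 3 the highest, and the groups overlapped almost fully. The means of 206 ± 32.8 and 208 ± 26.4 RPKM (SD, n = 5 each) gave a log2 fold change of 0.03 (SE 0.124, 95% interval -0.25 to 0.30, adjusted p = 0.987 by limma). Here counting error was at most 0.575%, and variation between libraries was 15.9% with DMSO and 12.7% with GW3965, the largest of the 6 genes on this scale. Without DMSO library 4 the log2 fold change was -0.07, and without DMSO library 1 and GW3965 libraries 1 and 2 it was 0.13, neither past the threshold. HSP90AA1 shared 14.02% of its windows of 50 bases with other genes, among which the pseudogene HSP90AA2P had 7.97%, so the split of reads between these copies is uncertain. HSP90AA2P, named after its values were seen, was at 57.5 ± 8.85 RPKM with DMSO and 60.8 ± 8.00 RPKM with GW3965 (SD, n = 5 each), with a log2 fold change of 0.08 (adjusted p = 0.954 by limma).

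ZNF839, which lies head to head with MOK across the gap, had the lowest level of the 6 genes. It was at 1.73, 1.64, 1.87, 1.74 and 1.81 RPKM with DMSO and at 1.91, 1.73, 1.6, 1.68 and 1.90 RPKM with GW3965. The range with DMSO lay within that with GW3965. Both means were 1.76 RPKM, with an SD of 0.0846 for DMSO and 0.138 for GW3965 (n = 5 each), and the log2 fold change was 0.00 with an interval from -0.17 to 0.17 (SE 0.075, adjusted p = 0.999 by limma). With 316 to 390 reads per library, counting error of 5.06 to 5.63% was about as large as the variation between libraries, which was 4.81% with DMSO and 7.84% with GW3965.

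CINP, tail to tail with ZNF839, was at 3.72, 4.15, 4.17, 4.49 and 3.64 RPKM with DMSO and at 3.64, 3.50, 4.53, 4.18 and 3.83 RPKM with GW3965. The groups overlapped, and GW3965 library 2 was the lowest library and GW3965 library 3 the highest. The means were 4.03 ± 0.350 and 3.94 ± 0.420 RPKM (SD, n = 5 each), with a log2 fold change of -0.04 (SE 0.086, 95% interval -0.23 to 0.15, adjusted p = 0.974 by limma). Windows also found in other genes made up 26.9% of CINP and 23.5% of ZNF839. Since the strand setting of the counting is not given in the sources used here, reads from the stretch that CINP and ZNF839 share cannot be assigned to one of them with certainty, and the same holds for the smaller stretches between MOK and WDR20, between HSP90AA1 and WDR20 and between TECPR2 and ANKRD9. Of the exon bases of WDR20, at a mean of 2.39 RPKM, 197, or 2.69%, are shared with HSP90AA1. The level of HSP90AA1, 207 RPKM, is a mean over all its exons, and it also has an inner start. The level within the shared bases is therefore not known from 1 value per gene.

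TECPR2, whose start faces that of CINP, was at 4.0, 3.52, 3.81, 4.34 and 3.60 RPKM with DMSO and at 3.69, 3.75, 3.74, 3.61 and 3.44 RPKM with GW3965. All libraries with GW3965 lay below DMSO libraries 1, 3 and 4, but DMSO libraries 2 and 5 lay among them. The means were 3.85 ± 0.329 and 3.64 ± 0.126 RPKM (SD, n = 5 each), with a log2 fold change of -0.07 (SE 0.067, 95% interval -0.22 to 0.07, adjusted p = 0.905 by limma). Without DMSO library 4, the highest, it was -0.03. ANKRD9 overlaps the other end of TECPR2 on the opposite strand over 722 exon bases, 7.69% of those of TECPR2.

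Of the 5 neighbours, 0 passed an adjusted p of 0.05 in limma, against 0.157% of all tested genes (0.147% higher and 0.0098% lower with GW3965). With voom on the recovered reads 0 passed as well, where 63 of all tested genes passed. At an unadjusted p of 0.05, 1 of the 5 passed in limma, against 6.99% of all tested genes. Groups that did not overlap were found in 0 of the 5, against 1.84% of all tested genes (1.35% higher and 0.49% lower). Their median log2 fold change was -0.04, against 0.003 over all tested genes, and 3 of the 5 values were below 0, against 48.9% of all tested genes. The intervals of the neighbours are not adjusted for the number of genes and measure only the spread between these libraries, which may be technical. They therefore do not bound how far GW3965 could have changed the neighbours. The lowest limit of the 5 was -0.38, in WDR20, and the next was -0.25, in HSP90AA1, where the spread between libraries was widest.

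Per length, the order of the levels with DMSO was HSP90AA1, CINP, MOK, TECPR2, WDR20 and ZNF839. HSP90AA1 stood 51.1 times above CINP. The ranges of CINP and MOK overlapped, as did those of MOK and TECPR2, whose means had a ratio of 1.0. TECPR2 lay above WDR20 by a ratio of 1.5 and WDR20 above ZNF839 by 1.45, without overlap of the libraries. With GW3965, MOK lay below TECPR2, while the order of the other genes was the same. The libraries of MOK no longer overlapped those of CINP or TECPR2. MOK was chosen for its lower level with GW3965, which favours both.

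The wider surroundings were then read by position. Of 56 genes that start within 1 Mb of the start of MOK, 23 were tested. Of the 22 other than MOK, 0 passed the threshold in limma or with voom. Of all tested genes, 0.157% passed in limma, and 63 genes passed with voom. Past an unadjusted p of 0.05 in limma was 1, WDR20, against 6.99% of all. The groups overlapped in each of the 22, and in all but 1.84% of all tested genes. With shares this low, counts of 0 say little about these genes. Their log2 fold changes were above 0 in 13 and below 0 in 9, with a median of 0.02 against 0.003 over all tested genes. The lowest was the long noncoding gene AL137779.2, at 0.738 RPKM with DMSO and 0.480 RPKM with GW3965 on 4 to 16 reads per library, with a log2 fold change of -0.53 (SE 0.275, adjusted p = 0.775 by limma). The highest was RN7SL472P, a copy of the 7SL RNA gene, with a log2 fold change of 0.57 (SE 0.573, adjusted p = 0.923 by limma). Both were near the floor of the test and had wide intervals. DYNC1H1, the heavy chain of cytoplasmic dynein, and PPP2R5C, a regulatory subunit of the phosphatase PP2A, had values of 0.05 and 0.03, and TRAF3, an adaptor of immune receptors, had -0.16, none past the threshold.

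Of the 33 genes in this window that were not tested, 10 were at 0 in every library and 1 had groups that did not overlap. How often this occurs among all genes that were not tested was not counted, so this count of 1 says little. The gene was DIO3, the deiodinase that inactivates thyroid hormone, whose start lies at -743.8 kb from that of MOK, and it was singled out after its values were seen. It had 0.304, 0.405, 0.394, 0.376 and 0.368 RPKM with DMSO and 0.267, 0.0597, 0.164, 0.121 and 0.206 RPKM with GW3965. These rested on 22 to 36 reads with DMSO and 5 to 19 reads with GW3965. With no filter on low values, its log2 fold change was -0.89 (SE 0.236), with an adjusted p of 0.524 by limma over 47537 genes.

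The genes that work with the products of this stretch were listed by their known roles. Among the RCK kinases, ICK was at 11.7 ± 0.976 RPKM with DMSO and 12.4 ± 0.539 RPKM with GW3965 (SD, n = 5 each), with a log2 fold change of 0.09 (adjusted p = 0.864 by limma). MAK was at 0.857 ± 0.147 and 0.718 ± 0.241 RPKM, with a log2 fold change of -0.26 (adjusted p = 0.879 by limma), and CDK20, which activates these kinases, was below 0.5 RPKM and not tested. Thus ICK, at the highest level of the family, and MAK, at the lowest tested, had differences that did not pass the test in opposite directions.

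In the complexes of USP12, USP46 and USP1, 0 of 6 genes passed in limma, against 0.157% of all tested genes. Past an unadjusted p of 0.05 was 1, WDR20, against 6.99% of all tested genes, and the median log2 fold change was -0.03. WDR20 had the lowest value, and WDR48, its partner in these complexes, the highest at 0.10 (adjusted p = 0.865 by limma). USP12 itself was at 10.7 ± 0.656 RPKM with DMSO and 10.3 ± 0.730 RPKM with GW3965 (SD, n = 5 each).

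The list of HSP90 chaperones, their cochaperones and heat shock genes had 28 genes, of which 28 were tested. In limma 0 passed, against 0.157% of all tested genes, and 1, HSP90B1, was past an unadjusted p of 0.05, against 6.99%. Their log2 fold changes were above 0 in 19 and below 0 in 9, where 48.9% of all tested genes were below 0, with a median of 0.03 and a range from -0.16 in FKBP5, a cochaperone of steroid receptors, to 0.20 in HSPH1, a nucleotide exchange factor of HSP70 chaperones. HSP90AB1, the constitutive cytosolic form, was higher than HSP90AA1 per length, at 342 ± 41.3 RPKM with DMSO and 339 ± 46.9 RPKM with GW3965 (SD, n = 5 each). HSP90B1, the form of the endoplasmic reticulum, was at 27.7 ± 2.95 and 31.3 ± 1.36 RPKM, with an unadjusted p of 0.0373 and an adjusted p of 0.669 by limma. HSPA1A and HSPA1B are near-identical copies, and the split of reads between them is uncertain.

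Among CINP and its partners, 0 of 8 passed in limma, against 0.157% of all tested genes. Past an unadjusted p of 0.05 was 1, C1orf109, against 6.99% of all tested genes, with an adjusted p of 0.711 by limma. Of the log2 fold changes, 7 of 8 were below 0, against 48.9% of all tested genes, with a median of -0.11. This share was not tested. The lowest value was that of CDK2, the cyclin-dependent kinase of S phase, at 8.92 ± 1.39 RPKM with DMSO and 7.49 ± 1.11 RPKM with GW3965 (SD, n = 5 each). Its log2 fold change was -0.25 (SE 0.128, adjusted p = 0.771 by limma). The highest was ATR, the checkpoint kinase, at 0.01 (SE 0.172). Among TECPR2 and its partners in autophagy, 9 of 12 genes were tested. In limma 0 passed (0.157% of all tested genes), also at an unadjusted p of 0.05 (6.99%). The median log2 fold change was 0.01. The range was from -0.09 in GABARAPL1 to 0.13 in VPS41, a subunit of the HOPS complex that tethers vesicles to lysosomes. Over all 5 lists without the 6 genes themselves, 49 of 53 genes were tested. Of these, 0 passed the threshold in limma (0.157% of all tested genes) or with voom (63 of all tested genes). Groups that did not overlap were found in 0 (1.84%), and 2 were past an unadjusted p of 0.05 (6.99%).

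**Figure D3:**
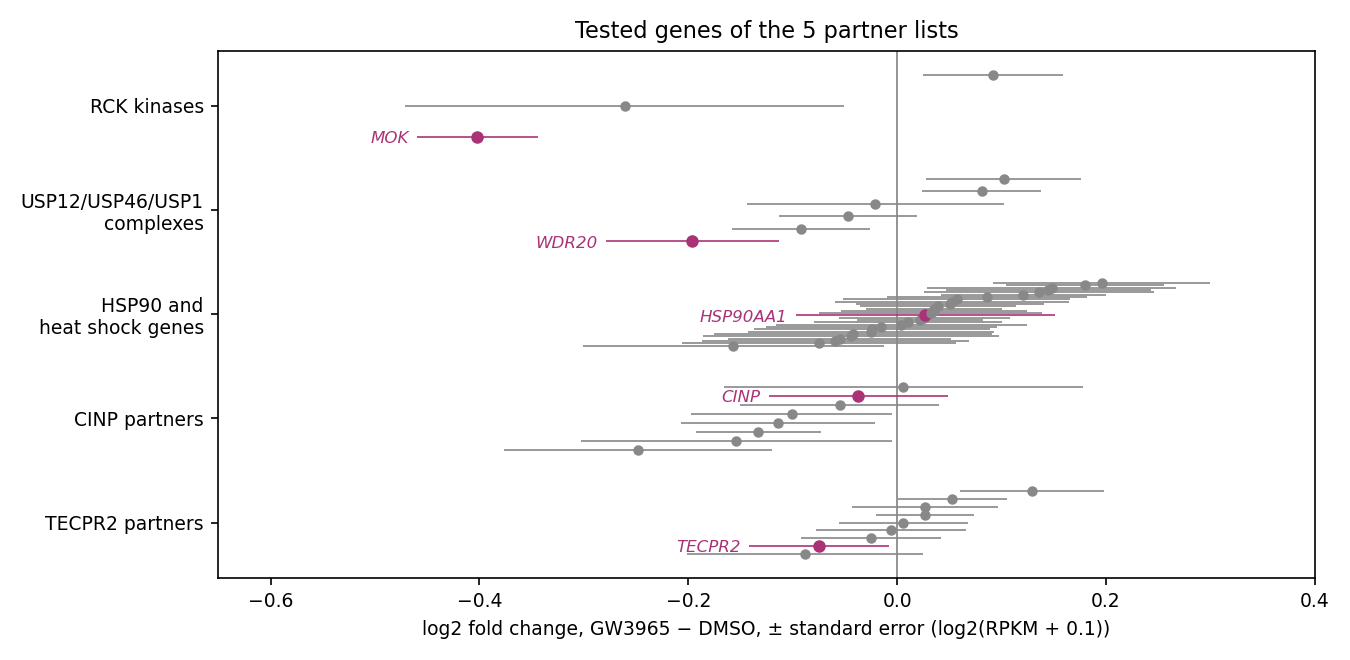
Log2 fold change of GW3965 against DMSO, with its standard error, of the tested genes of the 5 partner lists, with the genes of the 14q32 stretch in purple and their partners in grey. Apart from MOK at -0.40, the values lie between -0.26 and 0.20, on both sides of 0.

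Whether MOK and its neighbours moved together from library to library was examined within groups, as deviations from the group means over 10 libraries. The Pearson r of MOK was 0.18 with WDR20 (Spearman rho 0.25), 0.33 with HSP90AA1 (rho 0.33), 0.37 with CINP (rho 0.44), 0.06 with ZNF839 (rho -0.15) and -0.26 with TECPR2 (rho -0.32). None differed from 0 in a two-sided permutation test with 100000 resamples, in which p of r was 0.608, 0.357, 0.288, 0.875 and 0.477 in the same order, and that of rho was 0.489, 0.347, 0.202, 0.682 and 0.37. Adjusted over the 5 pairs by Benjamini-Hochberg, the lowest p was 0.76 for r and 0.611 for rho. Without DMSO library 3 and GW3965 library 5, the libraries farthest from the median of MOK, r was 0.12, 0.22, 0.55, -0.81 and -0.08. The value of MOK and ZNF839 thus rested on these libraries, and went from near 0 to negative without them. These deviations are small, with an SD of 0.065 on the log2 scale in MOK, and part of them is counting error.

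**Figure D4:**
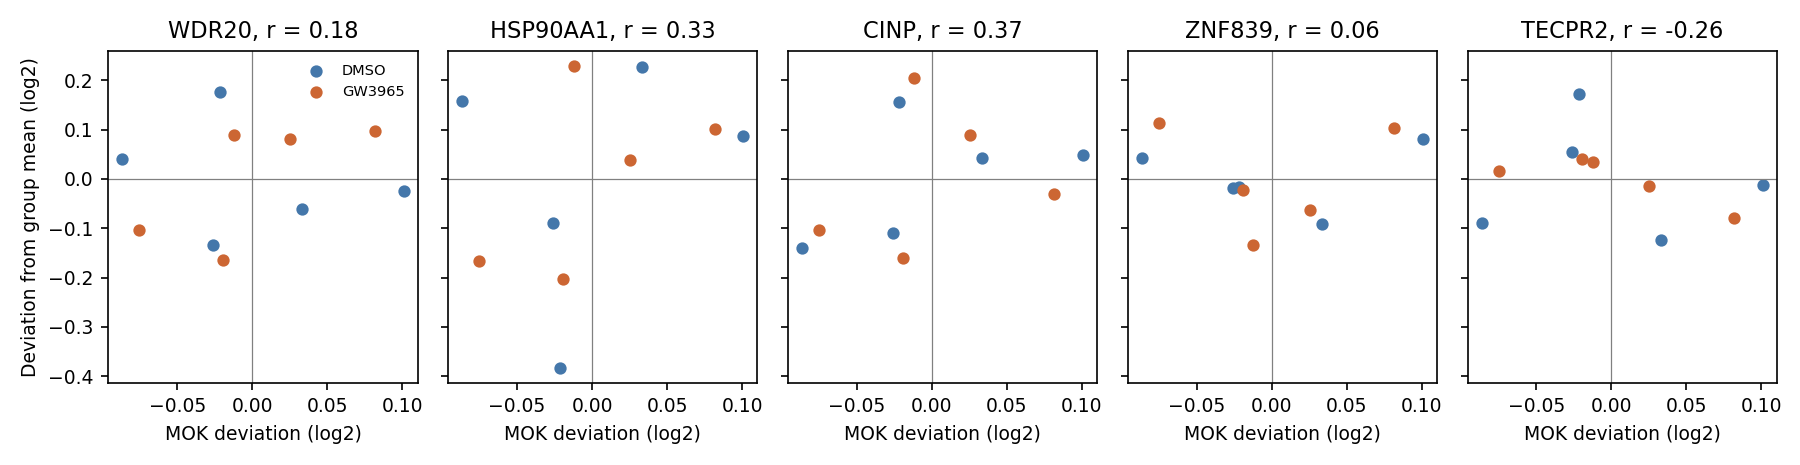
Deviation of each neighbour from its group mean against that of MOK, on the log2(RPKM + 0.1) scale, for the 5 libraries with DMSO (blue) and the 5 with GW3965 (orange), with Pearson r above each panel. The points scatter around the grey lines at 0 with r between -0.26 and 0.37.

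The genes whose levels followed MOK most closely over the 10 libraries were sought among the 7659 genes whose mean reached 5 RPKM, by Pearson r of log2(RPKM + 0.1). Because MOK differs between the groups, this measure ranks genes that differ between the groups as well, so r within groups is given beside it, and both are descriptions. The highest were FAM43A (r = 0.95, within groups 0.82), ENO2, the neuronal form of the glycolytic enzyme enolase (0.94, within groups 0.47), PFKFB4, which makes the activator of phosphofructokinase (0.92, within groups 0.82), WDR54 (0.89, within groups 0.52) and STEAP3, a ferrireductase of the transferrin cycle (0.88, within groups 0.64). FAM43A was at 52.7 ± 3.99 RPKM with DMSO and 41.7 ± 2.82 RPKM with GW3965, and STEAP3 was at 7.17 ± 0.984 and 5.27 ± 0.555 RPKM (SD, n = 5 each). The groups did not overlap in FAM43A, ENO2, WDR54 and STEAP3, against 0.49% of all tested genes in this direction, but the choice by r with MOK favours such genes. None of the 5 passed the threshold in limma, with adjusted p of 0.124, 0.204, 0.29, 0.324 and 0.222 in the order above.

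The lowest r, in genes that were high where MOK was low, belonged to SREBF1 (-0.99, within groups -0.86), NBPF1 (-0.98, within groups -0.74), STK39 (-0.98, within groups -0.68), AREG (-0.97, within groups -0.51) and ABCA1 (-0.97, within groups -0.58). SREBF1, the transcription factor of fatty acid synthesis and an LXR target, was at 12.5 ± 1.46 RPKM with DMSO and 20.9 ± 1.34 RPKM with GW3965 (SD, n = 5 each). Of the libraries with GW3965, library 5 had the highest MOK, at 3.07 RPKM, and SREBF1, ABCA1 and AREG were lowest there, at 18.8, 14.1 and 9.45 RPKM, whereas NBPF1 was lowest in library 4 and STK39 in library 3. Library 1 had the lowest MOK, at 2.74 RPKM, and SREBF1, NBPF1 and ABCA1 were highest there, at 22.0, 38.7 and 19.5 RPKM, whereas AREG and STK39 were highest in library 2. The choice by r favours such an order. None of the 5 neighbours was among these 10 genes.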

How the data were processed

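RNA of PC3 cells treated with 1 µM GW3965 or DMSO for 24 h was sequenced in 5 libraries per group, which were grouped by their sample titles. The methods describe stranded total RNA libraries depleted of ribosomal RNA, whereas the sample records name polyA RNA. Per the labels and the study's methods, single reads, 50 bases long, were aligned by the authors to the genome with HISAT2 (2.1.0 in the submitters' processing notes, which also name hg38, and 2.2.1 in the methods, which name the mouse genome), counted them per gene and deposited RPKM values. The notes also list bcl2fastq 2.20.0.422, cutadapt and HTSeq 0.11.2. All gene identifiers of the table are human. The strand setting and the annotation release are not given in the sources used here. An effect of either would be largest where genes overlap.

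Whole reads were recovered from the steps in the deposited RPKM values. This gave whole numbers, within 0.001, for 100% of nonzero values, and the scale of 967 genes was set by gene length. Totals lay between 30429384 and 41636379 reads. Genes and transcripts are those of GENCODE 29, and promoters are those of RefSeq. Windows of 50 bases were compared over all transcripts on both strands.

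Genes whose mean reached 0.5 RPKM were tested two-sided with limma (version 3.58.1, R version 4.3.3, eBayes with a trend) on log2(RPKM + 0.1). P-values were adjusted over the 20402 genes by Benjamini-Hochberg, with a threshold of 0.05. Permutations used scipy 1.17.1. The members, the lists and the tests were chosen with earlier results of these data known. Named genes are the 6 genes, the ends of each list and of the window, genes past the threshold or without overlap there, and the 5 highest and 5 lowest by r with MOK. DYNC1H1, PPP2R5C, TRAF3, ANKRD9, USP12, ICK, HSP90AB1 and HSP90B1 were added for their position or role after their values were seen. Alternatives were other pseudocounts (1 and 0.01), filters (none or a mean of 1 RPKM), scalings, the replicate number as a block, no trend, library weights, voom on the recovered reads and the loss of each library. The loss of DMSO library 1 and GW3965 libraries 1 and 2 together was added after the data were seen.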

Additional observations from a re-analysis of the deposited data

Results flagged for a closer look

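Over 36 genes named above, each group of 5 libraries was examined for a library that stood apart, by the gap to its nearest neighbour as a share of the whole range, with a limit of 0.71. Chance passes this limit in about 1 in 20 groups, which makes 3.6 of the 72 groups, and 3 passed. PFKFB4 was highest in GW3965 library 5, at 10.3 RPKM against 8.87 to 9.24 RPKM in the others, with a share of 0.729. AREG was lowest in the same library, at 9.45 RPKM against 11.9 to 13.0 RPKM, with a share of 0.721. ATR was lowest in DMSO library 4, at 0.706 RPKM against 1.25 to 1.40 RPKM, with a share of 0.835. None of the 6 genes of the 14q32 stretch had such a library.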

How the results depend on the processing

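The log2 fold change of MOK lay between -0.43 and -0.32 over the 21 alternatives, and between -0.42 and -0.38 with 1 library left out. The value of -0.32 came with a pseudocount of 1, which shrinks the change of low genes. MOK was chosen for this difference and its groups did not overlap. Values below 0 throughout follow from that choice and are no support for the difference. The number of genes past the threshold, from which MOK was taken, also differed. It was 32 in the fit given above, 21 with no filter, 20 without a trend, 56 with library weights and 63 with voom. Without the 3 libraries it was 18, and with 1 library left out 17 to 38 genes passed. MOK was among them in 12 of 21 alternatives, and not with no filter, without the 3 libraries, or without DMSO library 2 or 3 or GW3965 library 1, 2, 3 or 4. The cause was not tested. With the replicate number as a block, 16 genes passed and MOK did not. Same-numbered libraries had correlations of their deviations from -0.138 to 0.16. These values do not show that the numbers pair the samples, and so few weak correlations cannot exclude it.

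The 5 neighbours passed the threshold in 0 of 105 fits, with a lowest adjusted p of 0.326 by limma. The counts for the window and the partner lists were 0 in all 21 alternatives. Of all tested genes, 0.157% passed in the fit given above, and 16 to 63 genes passed in the alternatives. With shares this low, counts of 0 say little, and fits that reuse the same libraries are not independent. Directions near 0 turned. HSP90AA1 was at -0.002 with equal sums over protein-coding genes and -0.003 with library weights, and from -0.069 to 0.083 with 1 library left out. CINP was at 0.015 with library weights and 0.024 without the 3 libraries, and from -0.088 to 0.003 with 1 left out. ZNF839 was at -0.026 with equal sums, -0.017 with library weights and -0.034 without the 3 libraries, and from -0.027 to 0.035 with 1 left out. The r of MOK was -0.092 with WDR20 under the block, -0.12 with HSP90AA1 under quantile normalization, and from -0.23 to 0.38 with ZNF839 with 1 library left out. Depth limits ZNF839 and the genes near 0.5 RPKM most.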
